A study of Mus musculus with 43 samples.

Results

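The genes described here are 41 genes of the mouse complement system, chosen by symbol and matched to the Entrez IDs of the count table, where all 41 were found among 24475 IDs. They comprise 9 genes of the classical pathway, 8 of the lectin pathway, 4 of the alternative pathway with C3, 4 terminal components, 8 regulators and 8 receptors. The rule used gene names and no measured value. Of the 41, 39 had enough counts to be tested, and the lectin pathway genes Fcnb (ficolin B) and Mbl2 (a mannose-binding lectin) did not, with at most 1 count in any library. Fcnb was at 0 in 36 of the 43 libraries and Mbl2 in 42.

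RNA from mouse lung was sequenced from strand-specific mRNA libraries, 43 in all. House dust mite (HDM), an airway allergen, was given for 4 weeks (10 libraries) or 15 weeks without antibody (7 libraries). Further mice had 15 weeks of HDM with an isotype control antibody (4 libraries) or with an antibody against IL-33 (15 libraries), a cytokine that barrier cells release on damage. The 7 control libraries came from mice given saline, and carry no time in the labels, so exposure and time cannot be separated against saline. All mice, controls included, had the genotype Il33hu/hu, and the strain label of every library is C57BL/6NTac (75%) / 129S6SvEvTac (25%). Age is not given in the labels. The labels do not state that each library is a separate mouse, so p-values measure the spread between these samples.

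Complement is a cascade of plasma and tissue proteins that marks particles and cells for uptake and lysis. The classical pathway starts with C1q bound to antibody complexes or other ligands, the lectin pathway with collectins and ficolins bound to sugars, and the alternative pathway amplifies C3 cleavage through factors B and D. All 3 routes meet at C3, whose fragments are read by receptors on leukocytes, and lead on to C5 and the membrane attack complex. The liver makes most of the plasma proteins, while macrophages are a well-known source of C1q and alveolar epithelium of C3 and C5. Host cells are protected by regulators such as factor I, CD55 and CD59.

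Total counts were 4.80 to 12.6 M (mega-counts) per library, and levels are given as CPM, counts scaled to the same library total and composition. The 41 genes together held 0.398 to 0.552% of all counts in saline libraries and 0.834 to 1.13% in 15-week HDM libraries. Lung markers were abundant in every library, and the liver markers Fgb and Ttr had no count in any. The 6 liver markers summed to 0.616 to 12.5 CPM, most of it from Apob. Replicate 1 of 15-week HDM and replicate 3 of 4-week HDM were the least like their own groups (median correlation 0.916 and 0.923, against 0.952 or more for all others). Replicate 7 of the anti-IL-33 group had a sum of fat markers of 1487 CPM, against at most 98.5 CPM in every other library. The labels' sample numbers fall in 2 separate ranges of 22 and 21 libraries, called range 1 and range 2 here. Changes are log2 fold changes ± SE from 1 fit of all libraries. The SE is the size of the change divided by the square root of edgeR's F statistic. A gene is said to rise, fall or change where edgeR's quasi-likelihood test gave a Benjamini-Hochberg adjusted p under 0.05 over all 15598 genes tested. In bulk tissue, a change in the number of cells and a change in RNA per cell cannot be told apart.

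The first comparisons asked what HDM changed. After 4 weeks 21 of the 39 tested complement genes were higher than in saline and 6 lower, where 29.3% of all tested genes were higher and 27.5% lower (56.8% in all). After 15 weeks 20 were higher and 5 lower, where 31.2% of all genes were higher and 28.1% lower (59.2% in all). The median log2 fold change of the complement genes was 0.48 at 4 weeks and 0.77 at 15 weeks, against 0.01 for all tested genes at both times. At both times the 6 largest rises among the 41 were in Cfi, the 3 C1q chain genes and the receptor genes Itgax and C3ar1. The 3 largest falls among those at 2 CPM or more were in C5ar1, Vtn and C2 at 4 weeks and in Vtn, C7 and Cd55 at 15 weeks. The 2 comparisons share the saline libraries and are given side by side.

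**Figure D1:**
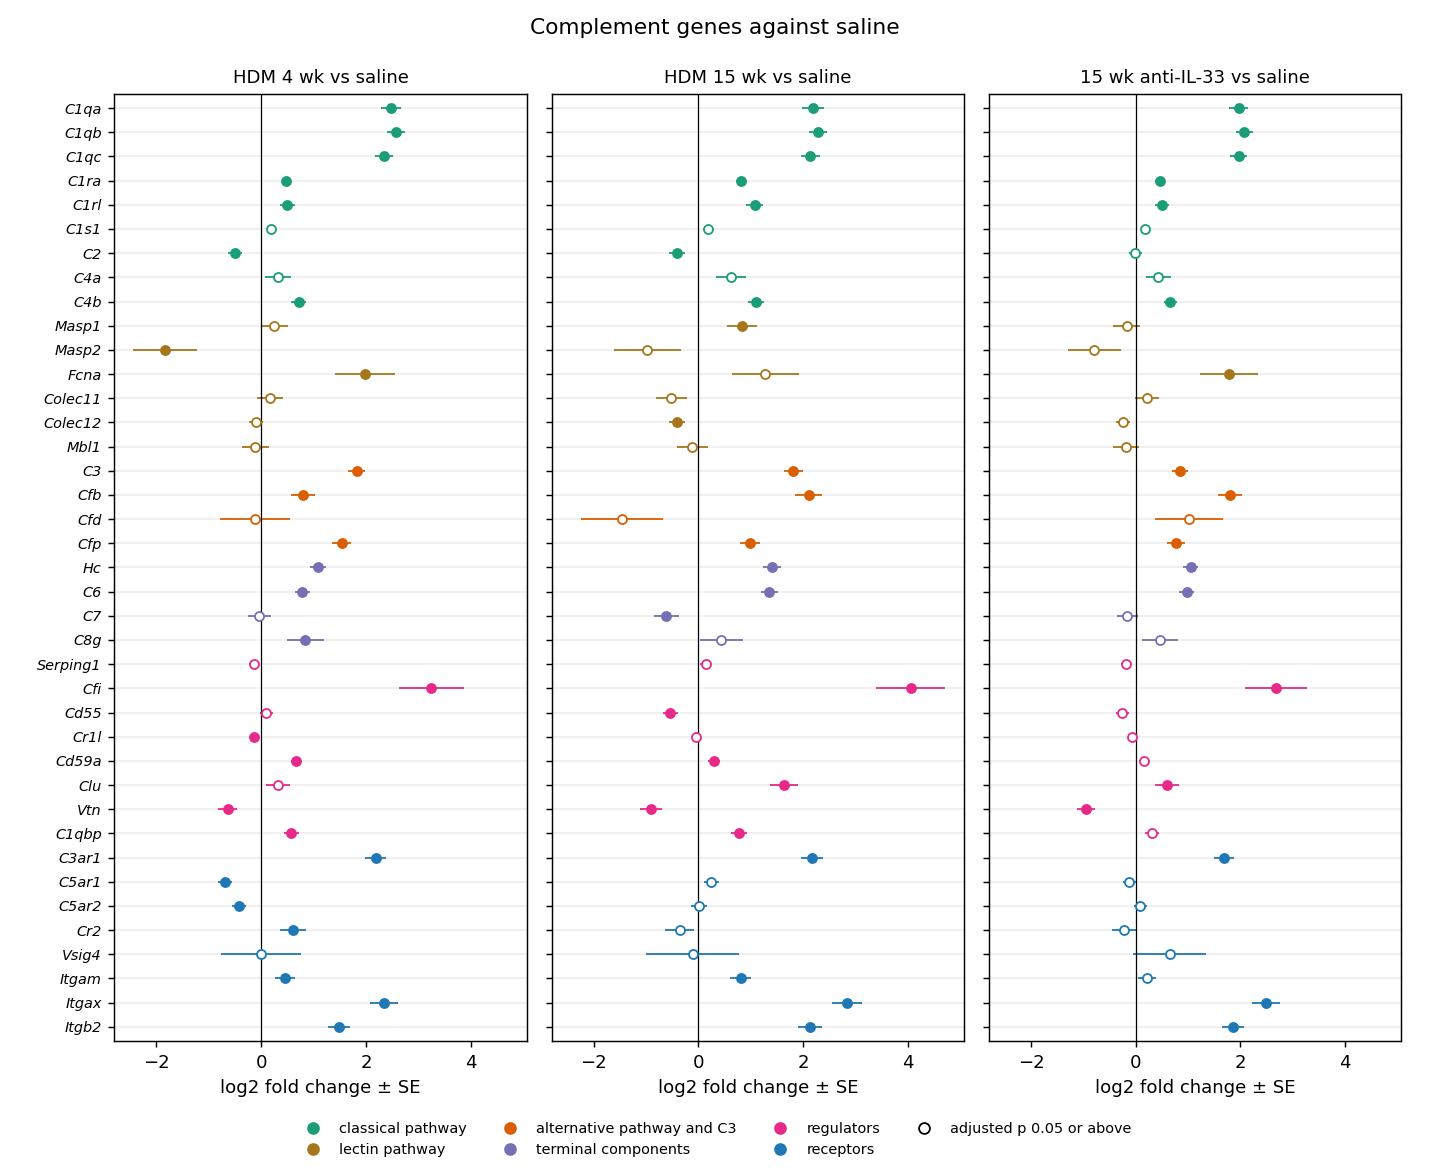
Log2 fold change against saline (x axis, with SE) for the 39 tested complement genes (y axis), grouped by role, after 4 weeks of HDM, 15 weeks of HDM and 15 weeks of HDM with anti-IL-33. Filled points have an adjusted p under 0.05; C1qa, C1qb, C1qc, C3, Cfi, C3ar1, Itgax and Itgb2 lie right of 0 in each panel, and Vtn lies left of 0.

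In the classical pathway 6 of 9 genes rose and 1 fell at both times. C1qa, C1qb and C1qc encode the 3 chains of C1q and lie next to each other on chromosome 4 (GRCm38), with 3600 bases between C1qb and C1qc and 2979 between C1qc and C1qa. RefSeq's promoter table (GRCm38.p6) holds C1qb and C1qc, whose upstream bases are shown because these genes moved together. Both lie on the minus strand. The C1qb stretch (chr4:136886201-136886450) held none of 5 motifs searched on both strands. The C1qc stretch (chr4:136892937-136893164, outside the annotated gene) held a PU.1 motif (GAGGAAGT, here in its reverse complement) and a kappa B motif, both in capitals.
C1qb: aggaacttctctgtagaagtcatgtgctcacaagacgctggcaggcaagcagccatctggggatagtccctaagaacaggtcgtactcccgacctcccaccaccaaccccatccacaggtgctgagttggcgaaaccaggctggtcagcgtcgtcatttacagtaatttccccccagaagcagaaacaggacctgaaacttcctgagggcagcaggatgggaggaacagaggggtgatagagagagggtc
C1qc: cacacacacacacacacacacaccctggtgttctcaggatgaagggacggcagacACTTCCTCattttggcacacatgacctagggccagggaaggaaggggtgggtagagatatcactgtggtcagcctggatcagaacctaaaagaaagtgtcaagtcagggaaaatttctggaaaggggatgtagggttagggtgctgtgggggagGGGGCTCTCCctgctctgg
The PU.1 letters occur in 2.44% of 32851 promoters of 250 bases and the kappa B letters in 7.25%, and a match is a description of letters only. The 2 motifs do not overlap each other.

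C1qa (Entrez 12259, chromosome 4, 136895916 to 136898844) had a lowest, median and highest level of 21.4, 22.8 and 37.6 CPM in saline libraries. The corresponding values were 72.0, 142 and 272 CPM at 4 weeks and 91.9, 104 and 246 CPM at 15 weeks. Every HDM library was above every saline library, and the 2 HDM times overlapped. C1qa rose by 2.48 ± 0.20, adjusted p = 7.39e-13, at 4 weeks and by 2.18 ± 0.21, adjusted p = 1.27e-10, at 15 weeks on the log2 scale. C1qb had 17, 21 and 28.3 CPM in saline, 71.6, 129 and 172 CPM at 4 weeks and 76.6, 99.1 and 169.9 CPM at 15 weeks, again with no overlap between saline and HDM. Its rises were 2.57 ± 0.17 and 2.28 ± 0.18, and those of C1qc 2.34 ± 0.18 and 2.14 ± 0.19. Per kilobase of exon the 3 chains lay close to each other, with mean levels of 25.1, 19.9 and 18 CPM per kb in saline and 144, 119 and 92.4 at 4 weeks.

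The C1r, C1r-like and C1s protease genes moved less than the C1q genes. C1ra, the C1r protease gene, rose by 0.48 ± 0.09 at 4 weeks and 0.82 ± 0.10 at 15 weeks, and C1rl, a C1r-like protease gene, by 0.49 ± 0.14 and 1.07 ± 0.16. C1s1, which encodes C1s, was at 162 to 263 CPM in all HDM libraries without antibody and 173 to 233 CPM in saline, and its adjusted p was 0.0542 and 0.0872. C1ra shares 98% of its aligned transcript bases with C1rb, and C1s1 95.9% with C1s2, so reads may be split unevenly within each pair. C4b encodes C4, which C1s cleaves. It had 249.7, 341 and 451 CPM in saline, 397, 528 and 777 CPM at 4 weeks and 504, 599 and 1189 CPM at 15 weeks. All libraries at 15 weeks and 8 of 10 at 4 weeks were above saline, with rises of 0.71 ± 0.14 and 1.09 ± 0.15. C4a, annotated by RefSeq as a transcribed pseudogene and 96.1% identical to C4b, stayed at 0.799 to 4.28 CPM over these groups and did not pass the test. C2, the partner of C4b in the C3 convertase, was the 1 classical gene that fell. Its lowest, median and highest levels were 27.4, 44.9 and 49.0 CPM in saline, 24.4, 29.4 and 37.7 CPM at 4 weeks and 24.5, 33.1 and 36.4 CPM at 15 weeks, so the groups overlapped. The log2 changes were -0.49 ± 0.13 (adjusted p = 0.002) and -0.41 ± 0.15 (adjusted p = 0.0197). The low end of the saline range was replicate 3, with the next saline library at 41.1 CPM.

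The 10 markers of monocytes and interstitial macrophages summed to 315 to 660.1 CPM in saline, 779 to 1086 CPM at 4 weeks and 1053 to 1602 CPM at 15 weeks. Of these 10, 6 rose and 1 fell at each time. Their part in the C1q values was not tested.

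Of the 6 lectin pathway genes tested, 1 rose and 1 fell at each time. Most were low. Fcna, which encodes ficolin A, had 0.28, 1.52 and 2.8 CPM in saline and 2.14, 6.28 and 10.5 CPM at 4 weeks, and rose by 1.98 ± 0.57 (adjusted p = 0.00353) with 9 of 10 libraries above saline. At 15 weeks its range was 2.46 to 8.02 CPM and the difference of 1.28 ± 0.63 did not pass the test. Masp2, a protease gene of this pathway, fell by 1.84 ± 0.61 at 4 weeks, but all of its levels were at most 1.79 CPM. Masp1, the other protease gene, was at 1.29 to 2.24 CPM in saline and 1.88 to 6.7 CPM at 15 weeks, a rise of 0.83 ± 0.30. Colec12, a scavenger receptor collectin gene, was at 180.3 to 227 CPM in saline and 73.9 to 195 CPM at 15 weeks, a log2 change of -0.41 ± 0.15. That change was -0.02 (adjusted p = 0.889) with counts corrected for GC content and length, and -0.29 (adjusted p = 0.0532) without replicate 1 of 15-week HDM. The collectin genes Colec11 and Mbl1 had at most 2.72 CPM in these groups and changed at neither time.

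C3 encodes the protein on which all routes converge. Its mean level per kilobase of exon was 206 CPM per kb in saline, next to that of Serping1 at 209, and 724 and 697 at 4 and 15 weeks, above every other of the 41 genes. It lies on the minus strand of chromosome 17 (Entrez 12266, chromosome 17, 57203967 to 57228136, GRCm38), and the 250 bases before its start (chr17:57228137-57228386) are shown because C3 both rose with HDM and was lower with anti-IL-33. They hold 1 C/EBP motif (TTNNGCAA, here in its reverse complement, in capitals), 38 to 45 bases before the start. These letters occur in 9.56% of all promoters of this length.
C3: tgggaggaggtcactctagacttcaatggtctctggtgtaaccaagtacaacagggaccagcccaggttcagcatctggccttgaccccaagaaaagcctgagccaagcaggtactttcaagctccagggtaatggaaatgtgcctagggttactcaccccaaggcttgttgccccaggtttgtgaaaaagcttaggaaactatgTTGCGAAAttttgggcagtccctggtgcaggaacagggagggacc
C3 had 893, 986 and 1415 CPM (lowest, median, highest) in saline, 2539.6, 3707 and 4556 CPM at 4 weeks and 2569, 3498 and 5386 CPM at 15 weeks. Every HDM library was above every saline library. The rises were 1.83 ± 0.16, adjusted p = 1.79e-11, and 1.81 ± 0.18, adjusted p = 1.49e-10. Markers of type II alveolar cells, an epithelial source of surfactant, summed to 14111 to 20527 CPM in saline, 20608 to 43429 CPM at 4 weeks and 23417 to 50964 CPM at 15 weeks, with 4 and 6 of the 6 higher, and their part in the C3 values was not tested.

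Of the other alternative pathway genes, Cfb encodes factor B, the catalytic part of the alternative C3 convertase. It had 30.03, 39.1 and 49.9 CPM in saline, 47.5, 68.6 and 99.6 CPM at 4 weeks and 100.1, 156 and 332 CPM at 15 weeks. All libraries at 15 weeks lay above all at 4 weeks and in saline, and 9 of 10 at 4 weeks lay above saline. The rises over saline were 0.79 ± 0.23 and 2.11 ± 0.26. Cfp encodes properdin, which stabilises that convertase. It had 15.6, 19.5 and 24.9 CPM in saline, 38.6, 54.1 and 99.1 CPM at 4 weeks and 33.5, 39.1 and 54.4 CPM at 15 weeks, with no overlap between saline and HDM and rises of 1.54 ± 0.18 and 0.99 ± 0.19. Cfd encodes factor D, which cleaves factor B and is made in fat. It ranged over 7.32 to 52.1 CPM in saline, 5.66 to 77.6 CPM at 4 weeks and 5.8 to 23.6 CPM at 15 weeks. Its groups overlapped, and differences of -0.12 ± 0.67 and -1.46 ± 0.78 did not pass the test. The 6 fat markers summed to 19.2 to 92.9, 10.5 to 78.9 and 4.64 to 25.3 CPM in the same groups.

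Among terminal components, Hc encodes C5, the source of the C5a peptide. Hc had 565, 904 and 1068 CPM in saline, 1056, 1870.1 and 2321 CPM at 4 weeks and 1321, 2401 and 2939 CPM at 15 weeks. It rose by 1.08 ± 0.16 and 1.40 ± 0.17, with all libraries at 15 weeks and 9 of 10 at 4 weeks above saline. C6, a subunit of the membrane attack complex, was at 44.2 to 60.6 CPM in saline, 62.3 to 112 CPM at 4 weeks and 86.1 to 176 CPM at 15 weeks, without overlap between saline and HDM, and rose by 0.78 ± 0.15 and 1.35 ± 0.16. C7, the next subunit, went the other way at 15 weeks. Its values were 193, 249 and 284 CPM in saline, 42.2, 249 and 324 CPM at 4 weeks and 76.4, 165 and 229 CPM at 15 weeks, and 6 of 7 libraries at 15 weeks were below all saline libraries. It fell by 0.61 ± 0.24 (adjusted p = 0.0289), and without replicate 1 of 15-week HDM the difference was -0.55 (adjusted p = 0.0609). C8g, which encodes a C8 chain, was at most 1.75 CPM in any library. Its rise of 0.84 ± 0.35 at 4 weeks (adjusted p = 0.0396) was no longer called by limma-voom (adjusted p = 0.154) or without replicate 3 of 4-week HDM (adjusted p = 0.069).

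Among the 8 regulators 3 rose and 2 fell at 4 weeks, and 4 rose and 2 fell at 15 weeks. Cfi encodes factor I, the protease that inactivates C3b and C4b, and had the largest fold change of the 41 genes at both times. It had 0.4, 1.16 and 2.1 CPM in saline, 3.25, 7.89 and 40.03 CPM at 4 weeks and 11.8, 13.8 and 65.7 CPM at 15 weeks. All HDM libraries were above all saline libraries, but the HDM libraries differed widely among themselves. The rises were 3.25 ± 0.62, adjusted p = 3.88e-05, and 4.05 ± 0.66, adjusted p = 2.63e-06. Clu encodes clusterin, a fluid-phase inhibitor of the terminal complex. It had 174, 209 and 245 CPM in saline, 157, 246 and 330.4 CPM at 4 weeks and 263, 504 and 1285 CPM at 15 weeks, so that only the 15-week libraries were clear of saline. Its difference was 0.32 ± 0.23 at 4 weeks (adjusted p = 0.246) and its rise 1.64 ± 0.27 at 15 weeks.

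Vtn encodes vitronectin, another fluid-phase inhibitor of the terminal complex, and fell. It had 11.6, 14.1 and 15.9 CPM in saline, 6.72, 8.72 and 12.2 CPM at 4 weeks and 3.82, 7.73 and 13.2 CPM at 15 weeks, with 9 of 10 and 6 of 7 libraries below all saline libraries. The log2 changes were -0.64 ± 0.18 and -0.91 ± 0.21. Cd55 encodes the membrane protein that speeds the decay of C3 convertases. It had 78.7, 82.8 and 102 CPM in saline, 71.1, 93.0 and 111 CPM at 4 weeks and 25.8, 67.8 and 80.7 CPM at 15 weeks. It fell by 0.54 ± 0.14 at 15 weeks, with 6 of 7 libraries below saline. Cd55 shares 86.8% of its aligned transcript bases with Cd55b, with identical runs of up to 198 bases, so some reads may be split between them. Of 4 mesothelial markers, 3 fell at 4 weeks and all 4 at 15 weeks, with sums of 95.7 to 247 CPM in saline and 63.7 to 139 CPM at 15 weeks, and their part in the Vtn and Cd55 values was not tested. C1qbp, which encodes a C1q-binding mitochondrial protein, rose by 0.57 ± 0.14 and 0.77 ± 0.15. Corrected for GC content and length, the C1qbp values were 0.13 (adjusted p = 0.23) and 0.43 (adjusted p = 0.000627). Serping1, the C1 inhibitor gene and the most abundant regulator per kilobase in saline, changed at neither time. Cr1l, the mouse regulator Crry, had a small log2 change of -0.13 ± 0.05 at 4 weeks, which was -0.02 (adjusted p = 0.91) with the GC and length correction.

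Cd59a encodes the membrane inhibitor of the terminal complex and lies on the plus strand of chromosome 2 (Entrez 12509, chromosome 2, 104095753 to 104115410, GRCm38). It is shown with C3 as the other gene that differed between anti-IL-33 and isotype. The 202 bases before the annotated gene (chr2:104095551-104095752) hold 1 interferon response motif (a pair of GAAA runs with 2 bases between them, in capitals), 178 to 187 bases before the start site in the promoter table. These letters occur in 2.98% of all promoters of 250 bases, and the fifth motif searched, STAT (TTCNNNGAA), in 7.02%. STAT letters were found before 3 of the 30 complement genes with a promoter sequence, Masp2, C7 and Colec11.
Cd59a: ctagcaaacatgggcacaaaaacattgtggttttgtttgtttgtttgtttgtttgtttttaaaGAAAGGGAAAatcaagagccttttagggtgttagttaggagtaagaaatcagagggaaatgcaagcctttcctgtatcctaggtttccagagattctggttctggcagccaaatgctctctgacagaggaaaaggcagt
Cd59a had 18.8, 22.4 and 26.1 CPM in saline, 31.3, 34 and 50.7 CPM at 4 weeks and 18.3, 28.2 and 35.4 CPM at 15 weeks. All 4-week libraries were above saline, while the 15-week libraries overlapped it. The rises were 0.67 ± 0.11 and 0.29 ± 0.12 (adjusted p = 0.0338), and the second was not called by limma-voom (adjusted p = 0.0548). Cd59a shares 87.7% of its aligned transcript bases with Cd59b, with identical runs of up to 104 bases, so some reads may be split between them.

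Among receptors 5 of 8 rose and 2 fell at 4 weeks, and 4 rose and none fell at 15 weeks. C3ar1 encodes the receptor of the C3a peptide. It had 5.89, 8.04 and 12.5 CPM in saline, 18.7, 40.5 and 54.7 CPM at 4 weeks and 26.8, 37.8 and 67.5 CPM at 15 weeks, without overlap between saline and HDM. Its rises were 2.18 ± 0.20 and 2.17 ± 0.22. C5ar1 and C5ar2 encode the C5a receptors and moved the opposite way at 4 weeks. C5ar1 had 8.6, 15.9 and 17.6 CPM in saline, 7.65, 8.89 and 12.1 CPM at 4 weeks and 13.9, 17.2 and 25.6 CPM at 15 weeks. It fell by 0.69 ± 0.13 at 4 weeks (adjusted p = 1.77e-05), with overlap only through saline replicate 3 at 8.60 CPM, the next saline library being at 13.5 CPM. At 15 weeks its difference from saline was 0.25 ± 0.14 (adjusted p = 0.133). C5ar2 fell by 0.42 ± 0.13 at 4 weeks and differed by 0.02 ± 0.15 at 15 weeks.

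Itgax, Itgam and Itgb2 encode the subunits of complement receptors 3 and 4, integrins that bind the C3 fragment iC3b. Itgax had 46.0, 69.4 and 109 CPM in saline, 239.7, 379 and 536 CPM at 4 weeks and 379, 554 and 633 CPM at 15 weeks, without overlap between saline and HDM. It rose by 2.35 ± 0.27 and 2.83 ± 0.29. The shared beta chain gene Itgb2 rose by 1.49 ± 0.21 and 2.13 ± 0.23, and Itgam by 0.46 ± 0.18 and 0.80 ± 0.21. Alveolar macrophages carry Itgax, and their 8 markers summed to 482 to 2229 CPM in saline, 6653 to 15365 CPM at 4 weeks and 6902 to 17204 CPM at 15 weeks, with 4 of 8 higher and 1 lower at each time. Chil3, a gene that alternatively activated macrophages also express, made up 97.2% of the sum at 4 weeks, 96.7% at 15 weeks and 74.6% in saline. Neutrophils carry Itgam, and their 8 markers summed to 131 to 254 CPM in saline, 167 to 465 CPM at 4 weeks and 260.2 to 616 CPM at 15 weeks. At 4 weeks 3 of the 8 were higher and 2 lower, with a median log2 fold change of -0.04, and at 15 weeks all 8 were higher. Dendritic cell markers, which also go with Itgax, summed to 49.9 to 91.2 CPM in saline. The sums were 68.8 to 83.5 CPM at 4 weeks, with 2 of 6 higher and 1 lower. At 15 weeks they were 45.6 to 73.7 CPM, with 1 of 6 higher and 1 lower. The part of these cells in the integrin values was not tested.

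Cr2 encodes complement receptors 1 and 2 of B cells and follicular dendritic cells. It had 13.3, 17.6 and 22.6 CPM in saline, 17.3, 25.3 and 50.8 CPM at 4 weeks and 4.14, 12.7 and 24.2 CPM at 15 weeks. It rose by 0.61 ± 0.25 at 4 weeks (adjusted p = 0.0357), with 6 of 10 libraries above saline, and differed by -0.36 ± 0.28 at 15 weeks (adjusted p = 0.269). The 4-week value was 1.05 with the GC and length correction, and limma-voom did not call it (adjusted p = 0.0593). B cell markers summed to 199 to 334 CPM in saline, 363 to 998 CPM at 4 weeks and 291 to 506 CPM at 15 weeks, with 7 of 8 higher at 4 weeks and 3 at 15 weeks. Vsig4, a macrophage receptor for C3 fragments, was at most 1.65 CPM in these groups and did not change.

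**Figure D2:**
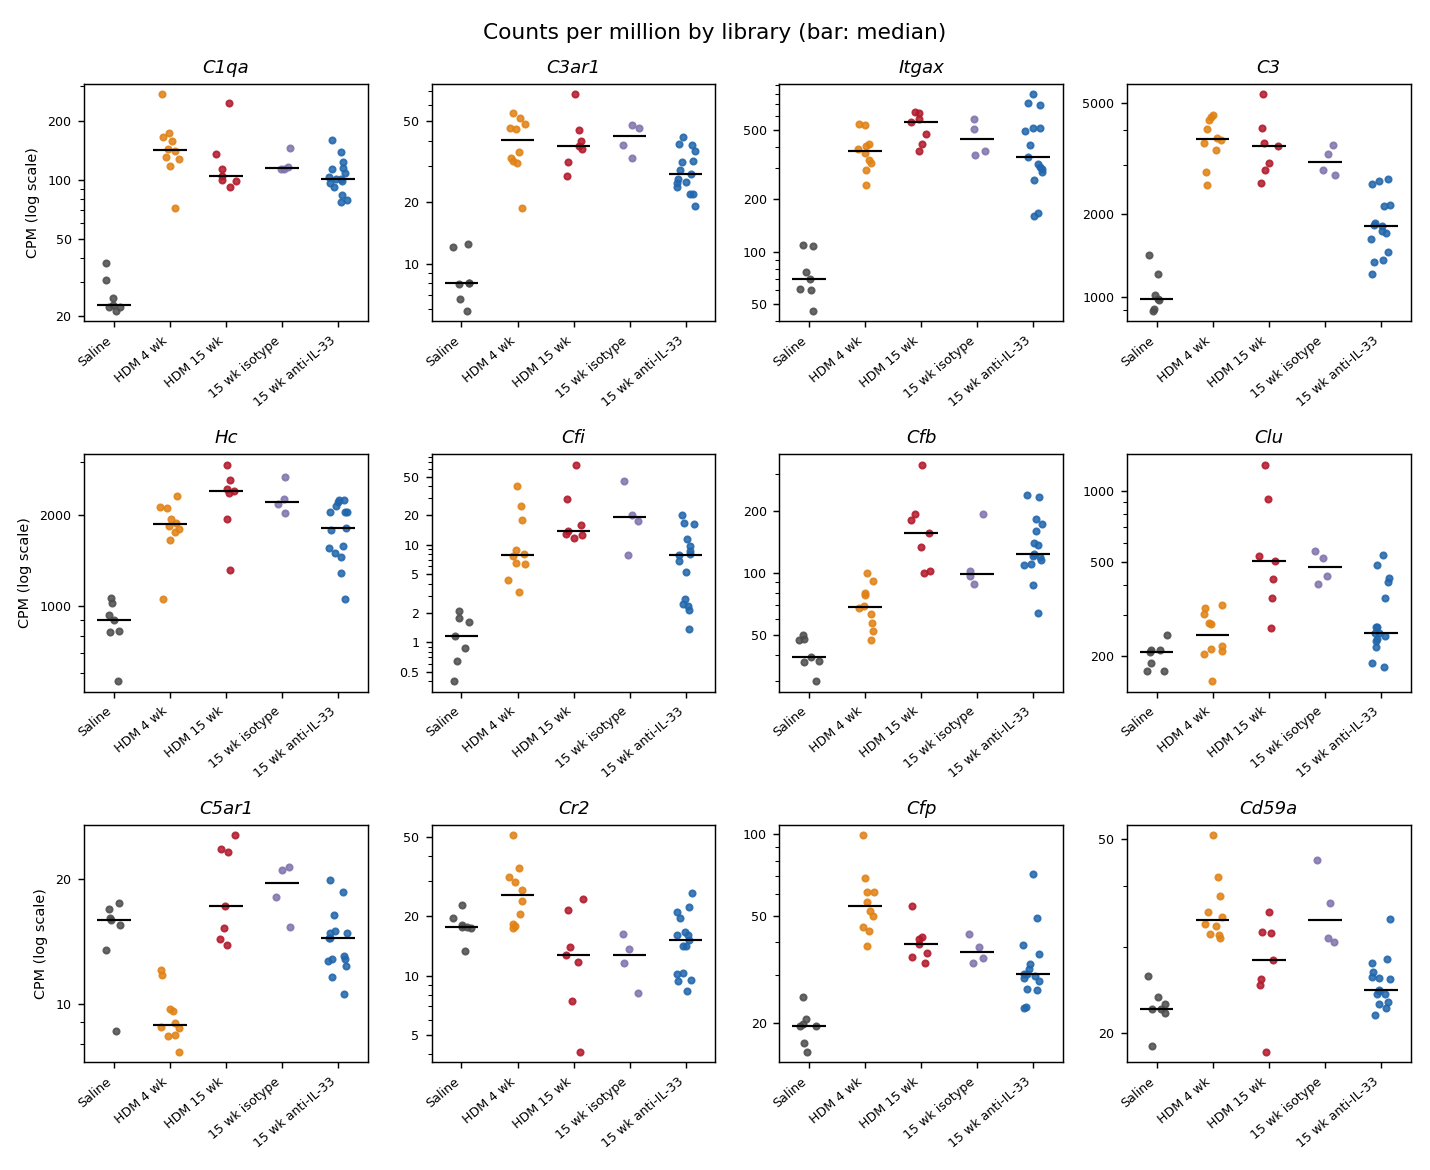
CPM (y axis, log scale) of 12 complement genes in each library (points) of the 5 groups (x axis), with the group median as a bar. C1qa, C3ar1, Itgax, C3, Cfi and Cfp have no overlap between saline and the 2 HDM groups without antibody. C5ar1 is lowest at 4 weeks, and C3 in anti-IL-33 libraries lies below all 4 isotype libraries.

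The second question was whether 15 weeks of exposure differed from 4 weeks. Of the 39 complement genes 10 were higher at 15 weeks and 4 lower, where 12.3% of all genes were higher and 9.08% lower (21.4% in all). The median was 0.09 for the complement genes and -0.01 for all genes. Clu rose by 1.32 ± 0.24, adjusted p = 0.000196, with 6 of 7 libraries above all those at 4 weeks. Cfb rose by 1.32 ± 0.22, adjusted p = 8.4e-05, and C5ar1 by 0.94 ± 0.13, adjusted p = 7.24e-06, each with all 7 libraries above all those at 4 weeks. The classical pathway genes C1rl (0.58 ± 0.14), C1ra (0.35 ± 0.09) and C4b (0.38 ± 0.14) rose as well, as did C6 (0.57 ± 0.14), Itgb2 (0.64 ± 0.20), C5ar2 (0.44 ± 0.14) and Serping1 (0.28 ± 0.09). Those that fell were Cr2 (-0.96 ± 0.26), Cd55 (-0.64 ± 0.13), Cfp (-0.55 ± 0.17) and Cd59a (-0.38 ± 0.11). For Cr2, 5 of 7 libraries were below all those at 4 weeks, and 4 of the 8 B cell markers fell as well. The C1q genes, C3, C3ar1 and Itgax did not pass the test between the times, with log2 differences of -0.30 for C1qa, -0.01 for C3, -0.02 for C3ar1 and 0.48 for Itgax.

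Within number range 1, 4 complement genes were higher and 2 lower, where 4.85% of all genes were higher and 4.12% lower. Within range 2, where 15-week HDM has 2 libraries, none of the complement genes and 0.942% of all genes passed. Clu was 1.71 in range 1 and 0.47 in range 2, Cfb 1.30 and 1.04, and C5ar1 1.05 and 0.66. C4b was 0.64 in range 1 and -0.12 in range 2, a change of direction. It was not called by limma-voom, without the count filter, without the range term or with the GC and length correction. C4b was also not called without replicate 1 of 15-week HDM (0.18, adjusted p = 0.262) or without replicate 3 of 4-week HDM (adjusted p = 0.0875). Serping1 was not called without the first (0.19, adjusted p = 0.0977) and Cfp not without the second (-0.42, adjusted p = 0.069). With both libraries left out, C4b was again not called. Cd59a was then -0.23 (adjusted p = 0.0765), Itgb2 0.54 (adjusted p = 0.0711) and C5ar2 0.40 (adjusted p = 0.0526).

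The isotype antibody was then compared with 15 weeks of HDM without antibody. None of the 39 complement genes and 0% of all tested genes were called by edgeR, with 1 complement gene and 933 genes at an unadjusted p under 0.05. No gene was called by limma-voom either, and DESeq2 called 8, none of them a complement gene. The complement gene was Cd59a, with isotype values of 45.2, 31.2, 36.8 and 30.6 CPM against 18.3 to 35.4 CPM without antibody and a difference of 0.36 ± 0.13 (adjusted p = 0.798). The median difference was -0.06 for the complement genes and -0.02 for all genes. With 4 libraries against 7 a small difference may go undetected.

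The last comparisons asked what anti-IL-33 changed. Against the isotype antibody, 2 of the 39 complement genes were lower, C3 and Cd59a, and none higher, where 3.14% of all genes were lower and 3.58% higher (6.71% in all). The median was -0.14 for the complement genes and 0.01 for all genes. C3 had 2880, 3272, 3527 and 2759 CPM in the 4 isotype libraries and 1214, 1808 and 2677 CPM (lowest, median, highest) in the 15 anti-IL-33 libraries. All 15 were below all 4. C3 fell by 0.77 ± 0.17, adjusted p = 0.00723, a level 0.586 times that with the isotype. The log2 change was -1.01 within range 1 and -0.36 within range 2, which has 1 isotype library, and without isotype replicate 3 it was -0.70 (adjusted p = 0.0794). Cd59a had 45.2, 31.2, 36.8 and 30.6 CPM with the isotype and 21.7, 24.4 and 34.2 CPM with anti-IL-33, where 14 of 15 libraries were below all isotype libraries. It fell by 0.49 ± 0.12, adjusted p = 0.0162. That was -0.38 (adjusted p = 0.157) without isotype replicate 1 and -0.48 (adjusted p = 0.0884) without replicate 3. Type II alveolar markers summed to 26392 to 38511 CPM with the isotype and 17621 to 27812 CPM with anti-IL-33, with none of the 6 called, and their part in the C3 values was not tested.

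Other complement genes lay lower with anti-IL-33 without passing the test. Clu had 404, 520.5, 435 and 554 CPM with the isotype and 180.0, 251 and 537 CPM with anti-IL-33, with 11 of 15 libraries below all isotype libraries and a difference of -0.67 ± 0.25 (adjusted p = 0.0863). Cfi had 20.4, 17.7, 44.6 and 7.76 CPM and 1.37, 7.91 and 20.1 CPM, with 7 of 15 below all isotype libraries and a difference of -1.31 ± 0.55 (adjusted p = 0.121) that was -2.44 in range 1 and 0.56 in range 2. C5ar1 had 15.4, 21.1, 21.4 and 18.2 CPM and 10.6, 14.4 and 19.9 CPM, and 12 of 15 libraries were below all isotype libraries (adjusted p = 0.0915). C3ar1 had 38.3, 46.5, 47.8 and 33.1 CPM and 19.1, 27.4 and 41.7 CPM, with 11 of 15 below (adjusted p = 0.112). Of the receptor genes of neutrophils, Itgam was -0.49 ± 0.20 (adjusted p = 0.116), and 5 of the 8 neutrophil markers fell, with sums of 305 to 355 CPM with the isotype and 109.8 to 266 CPM with anti-IL-33. Hc had 2041, 2175, 2675 and 2268 CPM with the isotype and 1059, 1812 and 2258 CPM with anti-IL-33 (adjusted p = 0.169). C4b had 579, 534, 522 and 643 and 418, 508 and 694 CPM, and Cfp 42.8, 34.9, 38.2 and 33.4 and 22.8, 30.2 and 71.2 CPM, with the groups overlapping for both. Of the C1q genes, C1qa had 145, 114, 113 and 115 CPM with the isotype and 77.2, 101 and 159 CPM with anti-IL-33, a difference of -0.16 ± 0.20 (adjusted p = 0.628) that was 0.11 with the GC and length correction. C1qb had 130.2, 109, 103 and 108 CPM and 62.9, 84.9 and 143 CPM, and Itgax 377, 360.5, 574 and 502 CPM and 159.7, 349 and 796 CPM, again with overlap and not called.

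A few genes lay higher with anti-IL-33, none of them called. C2 had 29.4, 38.2, 25.2 and 33.8 CPM with the isotype and 29.1, 40.04 and 64.9 CPM with anti-IL-33, with 10 of 15 above all isotype libraries (adjusted p = 0.0849). Vtn had 6.53, 5.0, 4.38 and 5.5 CPM and 3.39, 7.31 and 10.8 CPM, and Cr2 8.19, 11.6, 16.2 and 13.7 CPM and 8.36, 15.2 and 26.1 CPM (adjusted p = 0.227 and 0.551). Cfb had 87.9, 96.2, 102 and 192 CPM with the isotype and 63.9, 123 and 238 CPM with anti-IL-33 and a difference of 0.22 ± 0.25 (adjusted p = 0.576). Cfd had 11, 16.3, 14 and 13.4 CPM with the isotype and 6.35, 18.4 and 645 CPM with anti-IL-33. Its difference was 1.99 ± 0.86 (adjusted p = 0.129) and 0.61 without anti-IL-33 replicate 7, the library with the high sum of fat markers.

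The pair of libraries that stood apart from their groups, replicate 1 of 15-week HDM and replicate 3 of 4-week HDM, lie outside this comparison but enter its shared estimate of spread. Without both, 8 complement genes were lower, namely C3, Cd59a, Clu, C1rl, C1qbp, C3ar1, C5ar1 and Serping1, and C2 was higher. Their log2 differences were close to those above, with -0.77 for C3, -0.50 for Cd59a, -0.69 for Clu, -0.47 for C3ar1 and 0.42 for C2. In that fit 14.8% of all genes were higher and 14.96% lower.

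Against 15 weeks of HDM without antibody, the larger control group, 14 complement genes were lower with anti-IL-33 and 3 higher, where 19.9% of all genes were lower and 15.9% higher (35.8% in all). Against both control groups together, 15 were lower and 2 higher, where 18.7% of all genes were lower and 18.5% higher (37.2% in all). The comparison with no antibody shares the anti-IL-33 libraries with the previous one. C3 was -0.97 (adjusted p = 1.26e-05), Clu -1.04 (adjusted p = 0.00052), Cfi -1.37 (adjusted p = 0.0204) and Masp1 -1.01 (adjusted p = 0.00213). The others lower were Itgam (-0.60), C1rl (-0.57), C3ar1 (-0.47), C1qbp (-0.46), C4b (-0.43), C6 (-0.38), C5ar1 (-0.37), C1ra (-0.36), Hc (-0.35) and Serping1 (-0.32). Cd59a was not among them, at -0.13 (adjusted p = 0.296). The 3 higher genes were C2 (0.40), Colec11 (0.73) and Cfd (2.47). Without anti-IL-33 replicate 7, Cfd was 1.03 (adjusted p = 0.041), Colec11 and Hc were no longer called (adjusted p = 0.0524 and 0.0681), and Cfp was called lower (-0.35). Without replicate 1 of 15-week HDM, 11 were lower, where 11.5% of all genes were lower and 10.6% higher. C4b (-0.23, adjusted p = 0.0967), C6 (-0.32, adjusted p = 0.082) and C5ar1 (-0.30, adjusted p = 0.0589) were no longer among the 11.

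**Figure D3:**
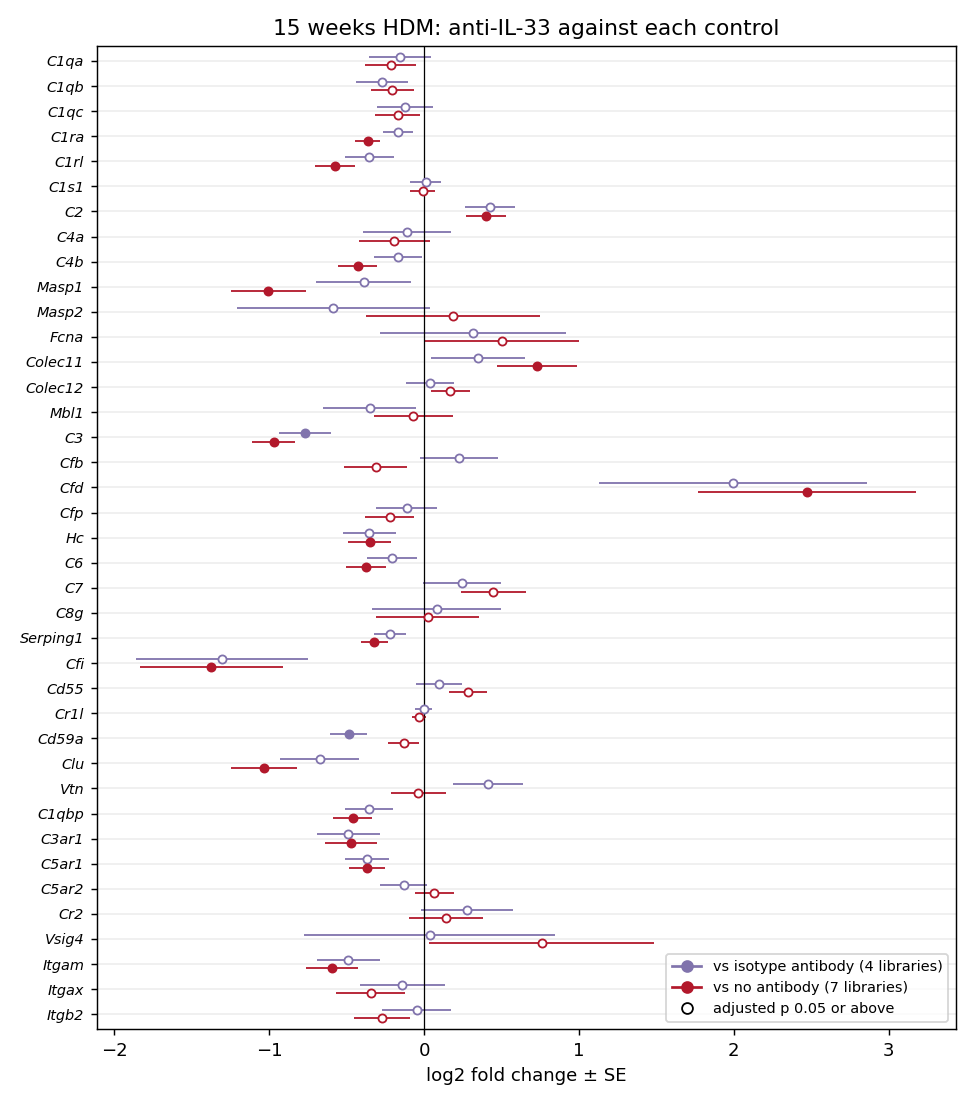
Log2 fold change (x axis, with SE) of the 39 tested complement genes (y axis) with anti-IL-33 against the 4 isotype libraries (purple) and against the 7 libraries without antibody (red), filled where the adjusted p is under 0.05. C3 is filled against both controls, at -0.77 and -0.97, and Cd59a against the isotype only.

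Compared with saline, 17 complement genes were higher with anti-IL-33 after 15 weeks of HDM and 1 lower, where 20% of all genes were higher and 18.5% lower (38.6% in all). The median was 0.46 for the complement genes and 0.00 for all genes. C1qa rose by 1.97 ± 0.19, C1qb by 2.07 ± 0.16 and C1qc by 1.96 ± 0.17, with all 15 libraries above saline for each. Itgax rose by 2.49 ± 0.26, Itgb2 by 1.86 ± 0.20, Cfb by 1.80 ± 0.22 and C3ar1 by 1.69 ± 0.19, also with all 15 above. C3 rose by 0.84 ± 0.15, adjusted p = 1.66e-05, with 12 of 15 libraries above saline. Cfi rose by 2.68 ± 0.59, Hc by 1.05 ± 0.15, C6 by 0.97 ± 0.14, Cfp by 0.77 ± 0.17, C4b by 0.66 ± 0.13 and Clu by 0.60 ± 0.22. The other risers were C1ra (0.46 ± 0.08), C1rl (0.50 ± 0.14) and Fcna (1.78 ± 0.55). Fcna was 42.6 CPM in replicate 7 and at most 11.7 CPM in the other anti-IL-33 libraries, and without replicate 7 its rise was 1.2 (adjusted p = 0.0131). Vtn fell by 0.95 ± 0.17, adjusted p = 1.91e-05, with all 15 libraries below all saline libraries. Cd59a was 0.16 ± 0.10 (adjusted p = 0.215) and C2 -0.01 ± 0.13 (adjusted p = 0.963) from saline.

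Further genes of the system came from a list of 20 named by function. Of these, 11 had enough counts, and the genes of C8a, C8b, C9 and the plasma carboxypeptidase Cpb2 stayed at or under 0.273 CPM. At 4 weeks 3 of the 11 rose and 1 fell, beside 29.3% and 27.5% of all genes, and at 15 weeks 6 rose and 1 fell, beside 31.2% and 28.1%. C4bp, which encodes the C4b-binding protein, was at 0 to 0.337 CPM in saline, with 4 of 7 libraries at 0, 0.389 to 1.86 CPM at 4 weeks and 1.0 to 4.12 CPM at 15 weeks. Its rises of 3.63 ± 0.58 and 5.05 ± 0.59 rest on few counts in saline. Ptx3, a pentraxin that binds C1q, rose by 2.12 ± 0.24 and 2.03 ± 0.27, and Csmd1, a membrane regulator, by 1.29 ± 0.26 and 2.38 ± 0.28. At 15 weeks C1rb, C1s2 and Cpn1, a carboxypeptidase N subunit gene, rose by 1.58, 0.92 and 0.50, and C1rb and C1s2 are the near copies named above. Cd93, once described as a C1q receptor, fell by 0.73 ± 0.11 at 4 weeks and fell by 0.51 ± 0.12 at 15 weeks. Between anti-IL-33 and isotype, 2 of the 11 fell and 0 rose, beside 3.14% and 3.58% of all genes. Ptx3 fell by 1.53 ± 0.24, adjusted p = 0.000307, and C4bp fell by 1.52 ± 0.42, adjusted p = 0.0293. All 15 anti-IL-33 libraries were below all isotype libraries for Ptx3 and 13 for C4bp.

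In all, 7 pairs of measures were compared within the 15 anti-IL-33 libraries, on log2 CPM, with permutation tests of 100000 resamples, 2-sided, and Benjamini-Hochberg adjustment over the 7. C1qa went with C1qb (Pearson r = 0.94, adjusted p = 2.33e-05, Spearman rho = 0.90, adjusted p = 7e-05). Without the 2 libraries farthest from the median of the first measure of the pair, the complement gene named first, r was 0.92. Itgax went with the alveolar macrophage markers (r = 0.96, adjusted p = 2.33e-05, rho = 0.98, adjusted p = 7e-05, and 0.95 without the 2), a sum of which Chil3 made up 95.5% in this group. Cfd went with the fat markers (r = 0.98, adjusted p = 2.33e-05, rho = 0.89, adjusted p = 9.33e-05, and 0.89 without the 2). Raw p-values of 1e-05 behind these are the smallest the resamples can give. Cr2 went with the B cell markers (r = 0.76, adjusted p = 0.000595, rho = 0.83, adjusted p = 0.000508, and 0.76 without the 2). Within ranges 1 and 2, r was 0.97 and 0.93 for C1qa with C1qb, 0.97 and 0.92 for Itgax, 0.996 and 0.83 for Cfd and 0.78 and 0.74 for Cr2. Itgam had r = 0.55 with the neutrophil markers (adjusted p = 0.0497, rho = 0.63, adjusted p = 0.0185, and 0.85 without the 2), but r was 0.14 within range 1 and 0.93 within range 2, so the relation did not hold in range 1. C1qa with the monocyte and interstitial macrophage markers had r = 0.05 (adjusted p = 0.873, rho = 0.19, adjusted p = 0.571, and 0.36 without the 2), with -0.08 and 0.43 within ranges. Mrc1 made up the largest share of that marker sum in this group, 30.9%. The sum was highest in replicates 1, 8 and 12 (1813, 1616 and 1559 CPM). The alveolar macrophage sum was also highest in these (21593, 20023 and 22399 CPM). Whether the list separates interstitial from alveolar macrophages was not tested. C3 with the type II alveolar markers had r = 0.12 (adjusted p = 0.785, rho = 0.10, adjusted p = 0.724, and 0.39 without the 2), with 0.20 and 0.55 within ranges.

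**Figure D4:**
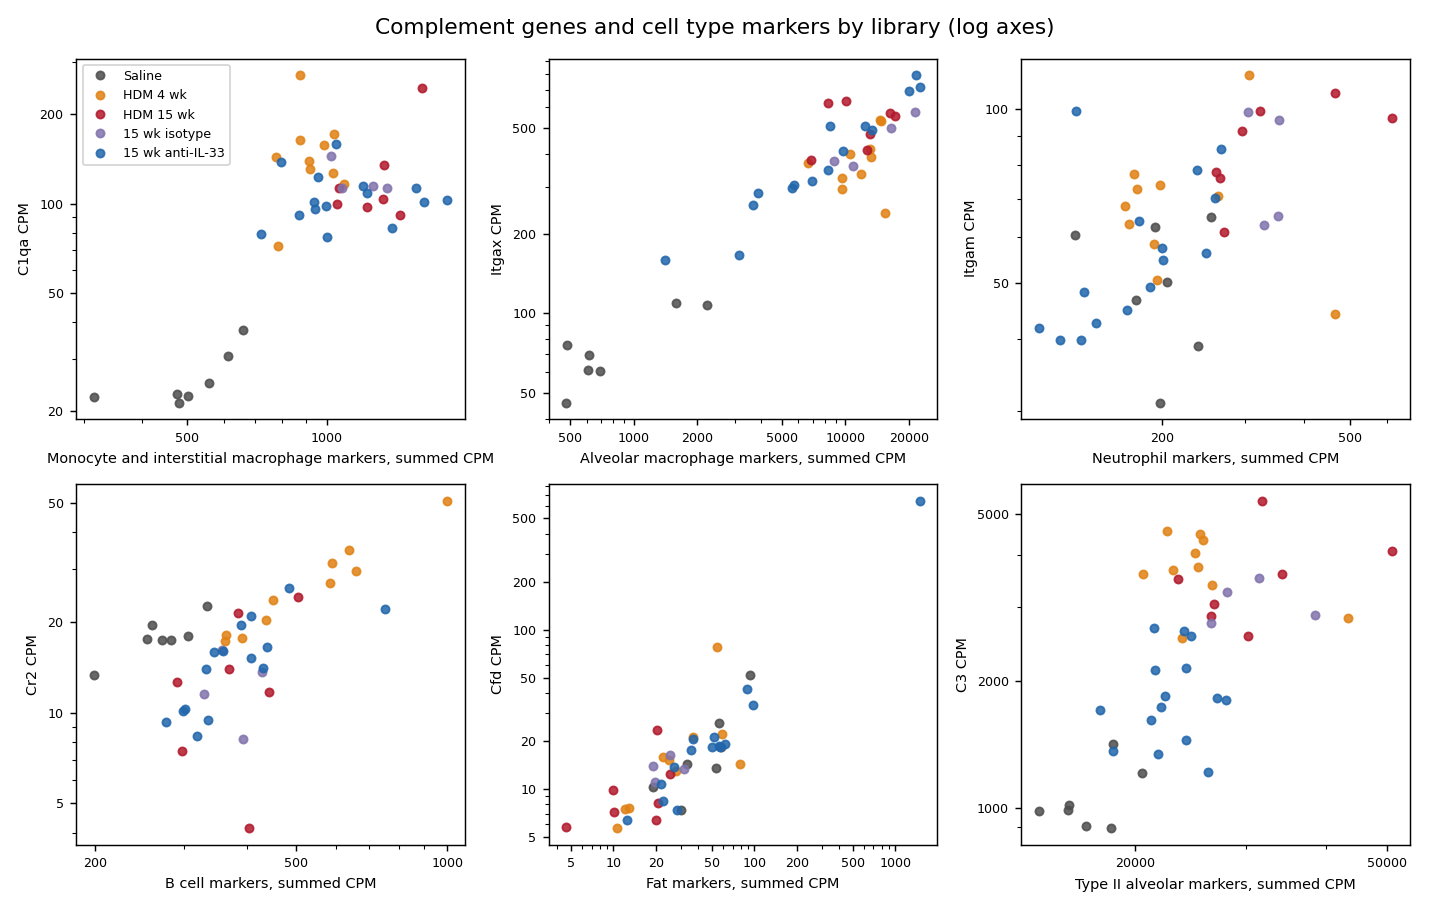
CPM of 6 complement genes (y axes, log scale) against the summed CPM of a marker list (x axes, log scale) in each of the 43 libraries, coloured by group. Within anti-IL-33 libraries Itgax, Cr2 and Cfd go with their lists, with Cfd at 645 CPM in the library with fat markers at 1487 CPM, while C1qa and C3 do not.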

How the data were processed

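The deposited table holds raw counts, whole numbers without normalization, for each Entrez ID and library, per the file headers and values. Libraries were made with a stranded mRNA kit per the labels' protocols, and the build was GRCm38 per the submitters' processing notes. The aligner, counter, annotation and strand setting stay unnamed, being not given in the sources used here. Of 24475 IDs, 24375 matched a RefSeq symbol (GRCm38.p6), and the 100 unmatched hold 2.62% of counts. Groups came from the titles.

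Counts of all 43 libraries entered 1 fit in edgeR 4.0.16 (R 4.3.3; TMM, filterByExpr, robust quasi-likelihood) with group and number range, and the 6 comparisons are contrasts in it. CPM used TMM-scaled totals. The script was tested on simulated data. Alternatives were other size factors, no filter, no range term, each range alone, limma-voom 3.58.1, DESeq2 1.42.0, a GC and length correction, other controls and libraries left out. No 2 replicates agreed within sampling noise over 198 pairs. Values by library are given for up to 3 called genes with the largest rise and fall per comparison at 2 CPM or more, and for 10 fixed genes. Members, gene and marker lists and this rule were chosen with earlier results of these data known. Leaving out anti-IL-33 replicate 7, 15-week HDM replicate 1 or 4-week HDM replicate 3 alone was added after seeing the data. RefSeq promoters, 250 bases before the start, were found for 30 of the 41 genes.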

Additional observations from a re-analysis of the deposited data

Results flagged for a closer look

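A library far from the rest of its group was marked where its gap to the next library, divided by the group's range of log2(CPM + 0.5), passed Dixon's limit for 95%. Of 156 combinations of gene and group in the 4 groups of 4 to 10 libraries, 19 were marked, where chance at 1 in 20 would mark 7.8. Replicate 3 of 4-week HDM held 5 of them, with C7 lowest at 42.2 CPM (next 177), Hc lowest at 1056 CPM, C3ar1 lowest at 18.7 CPM, C1rl highest at 28.96 CPM and Cfd highest at 77.6 CPM. Replicate 1 of 15-week HDM held 4, with C1qa highest at 246 CPM (next 135), C1ra highest at 289 CPM, C4b highest at 1189 CPM and Cd55 lowest at 25.8 CPM. Saline replicate 3 held 4, with the lowest values of C2 (27.4 CPM), Hc (565 CPM), Cr1l (63.0 CPM) and C5ar1 (8.60 CPM). The other 6 were spread over libraries. C1s1 was highest in saline replicate 1 (233 CPM), C1qb lowest in 4-week HDM replicate 8 (71.6 CPM), C2 lowest in 15-week HDM replicate 4 (24.5 CPM) and Cr1l lowest in its replicate 6 (67.4 CPM). With the isotype, C1qa was highest in replicate 1 (145 CPM) and C1rl lowest in replicate 2 (19.4 CPM). The cause of these values was not tested.

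The effect of HDM against saline differed between 15 and 4 weeks for 14 genes, by the contrast of the 2 times in the edgeR fit. That contrast is the one described above, where 21.4% of all genes were called. Settings in which some of the 14 were not called are given there. The difference, 15 minus 4 weeks on the log2 scale, was 1.32 for Clu, 1.32 for Cfb, 0.94 for C5ar1, 0.64 for Itgb2, 0.58 for C1rl, 0.57 for C6 and 0.44 for C5ar2. It was 0.38 for C4b, 0.35 for C1ra, 0.28 for Serping1, -0.96 for Cr2, -0.64 for Cd55, -0.55 for Cfp and -0.38 for Cd59a. C5ar1 moved from below saline at 4 weeks (-0.69) to a value not called at 15 weeks (0.25).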

How the results depend on the processing

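No paired analysis was possible because the labels give no replicate numbers that pair libraries across groups. Against saline, within number range 1 (2 saline libraries) 10 complement genes were higher and 0 lower at 4 weeks (2295 genes called). Of all genes 8.17% were higher and 6.55% lower there. At 15 weeks 1 complement gene was lower in range 1 (4193 genes called), where 12.68% of all genes were lower. Within range 2, 2 complement genes were lower at 15 weeks, where 21.02% of all genes were lower. In the fit of all libraries, 3 to 5 complement genes were lower at 15 weeks with 1 library left out, the 3 without 15-week HDM replicate 1. Of all genes 27.68 to 29.11% were lower in these fits. Between 15 and 4 weeks, range 1 gave 4 higher, 2 lower and 1399 genes called, and range 2 gave 0, 0 and 147, with C4b at -0.12. For anti-IL-33 against saline, range 1 gave 7 higher, 0 lower and 572 genes called, where 2.61% of all genes were higher and 1.06% lower. Range 2 gave 2 lower, where 22.1% of all genes were lower. In the fit of all libraries, 3 were lower in that comparison with the GC and length correction (21.7% of all genes lower). With both apart libraries left out 4 were lower (24.5% of all genes), and 1 to 3 with 1 library left out (18.4 to 21.4% of all genes).

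For the isotype against no antibody, the genes called were 7 without the count filter, 4 without the range term, 1 in range 2, 8 by DESeq2, 1 with both apart libraries left out and 0 to 9 with 1 library left out. For anti-IL-33 against the isotype (1047 genes called), they were 687 without the filter, 297 and 1 in ranges 1 and 2, 1704 by DESeq2 and 4637 with both apart libraries left out, where 8 complement genes were lower and 1 higher, and 0 were lower in range 2. With 1 library left out, 55 to 2545 genes and 0 to 4 complement genes lower were called. In these fits 0.288 to 8.42% of all genes were lower. With 15-week HDM without antibody as the control, 5588 genes, 14 complement genes lower and 3 higher were called, and 5802, 15 and 2 with both controls together. The former gave 5188, 14 and 2 without anti-IL-33 replicate 7, and 3456, 11 and 2 without 15-week HDM replicate 1. Of all genes 18.6% were lower and 14.6% higher without the first library, and 11.5% and 10.6% without the second. Fewer libraries or another control enter these by construction, and the cause of other shifts was not tested. Depth limits the genes with a mean under 2 CPM in every group, among them Masp2, C8g, Colec11, Mbl1 and Vsig4. The highest Vsig4 level in a single library was 5.26 CPM, with anti-IL-33.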
